A study of Zea mays with 18 samples.

Results

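The 49 genes described here are those whose identifiers begin with GRMZM5G in a table of 28724 maize genes, the other 28675 identifiers beginning with Zm00001d. They were chosen by the letters of the identifier alone, and they made up 0.171% of the rows and 0.00217% of the counts. All 49 stood together at the end of the table, in rows 28676 to 28724, and each ends in RefGen_V4, a suffix left off below. GRMZM is the gene prefix of an older annotation of the maize line B73. Whether these are genes of the organelles, for which older identifiers may have been kept, was not checked, because 0 of the 49 identifiers matched the RefSeq table of maize genes, which belongs to a later assembly. The RefSeq table holds 1215 other GRMZM5G identifiers as synonyms of 1228 genes, and 0 of those genes lay on the plastid or mitochondrial genome, for which it lists 158 and 214 genes. The 49 identifiers are not among them, so where the 49 genes lie cannot be read from this. The GRMZM5G genes are therefore given by identifier, without names or functions, and no sequence is shown.

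Total RNA of the quiescent centre, whose cells divide rarely and border the stem cells of the root meristem, was sequenced from maize seedlings 5 days old. Line S overexpressed the phytoglobin gene ZmPgb1.1, in line A this gene was down-regulated, and WT was the wild type. Roots stood in half-strength Murashige and Skoog medium, supplied with 4% oxygen in nitrogen for 12 h (hypoxia) or sampled at 0 h under normoxia. This gives 6 groups of 3 libraries, written S_12h, A_12h, WT_12h, S_0h, A_0h and WT_0h, and because no group spent 12 h in air, effects of oxygen and of elapsed time cannot be told apart. The sources used here do not give the promoter of the transgenes, the number of independent events behind each line or the pooling of seedlings. No identifier was paired with a gene name, so neither ZmPgb1.1 nor markers of the quiescent centre could be used to check the labels.

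Plastids and mitochondria carry small genomes of their own, which encode subunits of the photosynthetic and respiratory complexes, ribosomal proteins and RNAs. Root tips hold non-green plastids, in which photosynthesis genes are little used, while mitochondria supply the ATP of dividing cells as long as oxygen is present. Organelle mRNAs mostly lack the stable poly(A) tail of nuclear mRNAs, so libraries made by poly(A) selection hold few of them. The labels do not say how RNA was selected for these libraries, and none of this background is assigned to any GRMZM5G gene here.

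Libraries held 35441975 counts (A_12h replicate 3) to 89759585 counts (WT_12h replicate 1), and a level of 3 counts stood for 0.0334 to 0.0846 CPM. CPM, counts per 1000000 counts, were computed after TMM scaling, a correction for differences in library composition. Resemblance between libraries over all genes tested did not follow the labels. By Spearman correlation, 6 libraries had both of their nearest libraries in another group. Among the WT and S libraries, S_0h replicate 3 was closest to WT_0h, WT_12h replicate 3 to S_0h, and WT_0h replicate 2 to WT_12h. Of the rest, A_12h replicate 3 was closest to S_12h, S_12h replicate 3 to A_0h, and A_0h replicate 3 to A_12h. The other 12 libraries had 1 of their 2 nearest in their own group. Every group below holds the libraries that carry its label, and results are also given without these 6 libraries, which leaves 2 per group. Whether labels were exchanged between libraries was not tested, so each group mean stands for the labels as deposited.

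Few of the GRMZM5G genes were read at an appreciable depth. Of the 49, 38 had at least 1 count in some library, 12 had counts in all 18 libraries, 18 in 2 to 16 libraries and 8 in a single library. The remaining 11 had 0 counts in every library. By comparison, 65.6% of the Zm00001d genes had counts in every library, against 24.5% of the GRMZM5G genes, and 11.1% had none, against 22.4%. A single library detected 17 to 25 of the 49 genes. The lowest number, 17, was in A_12h replicate 3, the library with the fewest counts, and the highest, 25, was in S_0h replicate 3, which held 86614428 counts. The part of depth in these numbers was not tested. In bulk tissue, fewer cells of a type and less RNA per cell cannot be told apart.

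**Figure D1:**
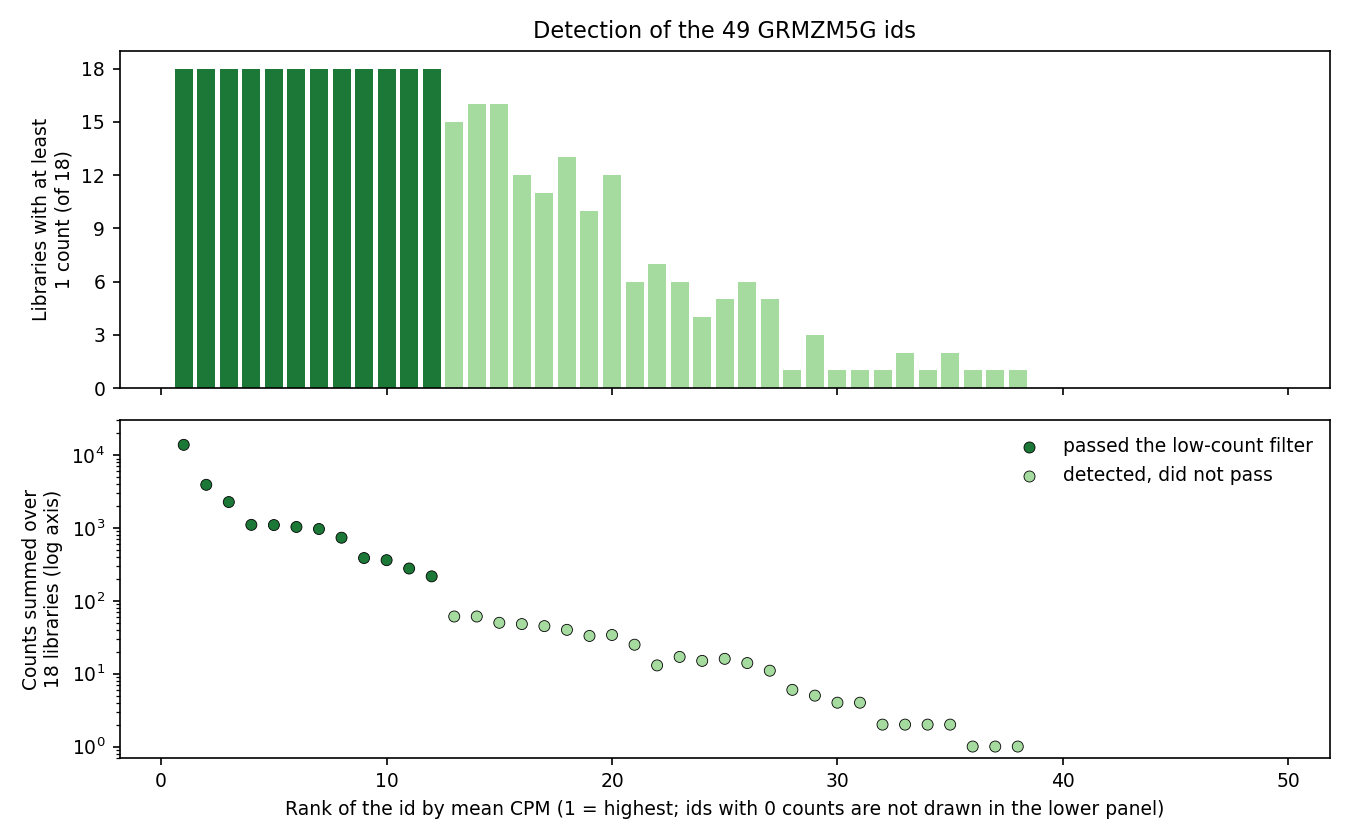
The upper panel plots the number of libraries with at least 1 count for each of the 49 GRMZM5G genes, ordered by mean CPM, and the lower panel their counts summed over 18 libraries on a log axis. The 12 genes that passed the low-count filter are dark green and had 217 to 13862 counts each, while the other 26 detected genes had at most 61.

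Most counts fell on a single gene. GRMZM5G862955 held 13862 of the 26752 counts on the 49 genes, or 51.8%, GRMZM5G851769 held 14.6% and GRMZM5G861791 held 8.49%. The 12 genes with counts in every library held 98.1% together, and these were the same 12 that passed the low-count filter. Transcript lengths were not used, so these shares describe counts and say nothing of the order of transcript levels between genes. The genes that failed the filter were close to the limit of detection. The 18 of them seen in 2 to 16 libraries had 2 to 61 counts in all and at most 16 in a library.

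Counts in a single library were few in each of those 8 genes. GRMZM5G851708 and GRMZM5G863003 had 6 and 4 counts, both in WT_0h replicate 3, and GRMZM5G816772 had 4 counts in A_12h replicate 2. GRMZM5G897615 had 2 counts in WT_12h replicate 3 and GRMZM5G875287 had 2 in S_0h replicate 3. The fewest counts of all detected genes were those of GRMZM5G808402, GRMZM5G899836 and GRMZM5G894376, each with 1 count, in S_12h replicate 2, WT_0h replicate 2 and WT_0h replicate 1. Such values cannot be told from counting error.

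The 11 genes listed at 0 were GRMZM5G800780, GRMZM5G801958, GRMZM5G808939, GRMZM5G815453, GRMZM5G831399, GRMZM5G831540, GRMZM5G844074, GRMZM5G853409, GRMZM5G860062, GRMZM5G879235 and GRMZM5G892983. A count of 0 allows up to 3 counts over all 18 libraries, which is 0.00243 CPM, a limit in counts rather than fragments that covers counting error alone, as reads were counted without molecular identifiers. If both reads of a pair were counted, which the sources used here do not say, the limit is higher. The sources used here do not say how reads that map to several places were counted, so genes with a near-identical copy elsewhere are uncertain.

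The 49 genes together took a small and similar share of every library. Per 1000000 counts, S_12h held 23.5, 26.1 and 20.0 counts on them (replicates 1, 2 and 3, an order kept throughout), A_12h 19.4, 18.4 and 26.8, and WT_12h 20.0, 21.6 and 23.6. At 0 h, S_0h held 24.3, 23.9 and 22.1, A_0h 19.6, 19.6 and 19.2, and WT_0h 21.1, 22.6 and 21.0. The whole range was 0.00184% to 0.00268% of a library. The lowest and the highest share were both in A_12h, and A_0h had the closest replicates, at 19.5 ± 0.24 (SD, n = 3).

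**Figure D2:**
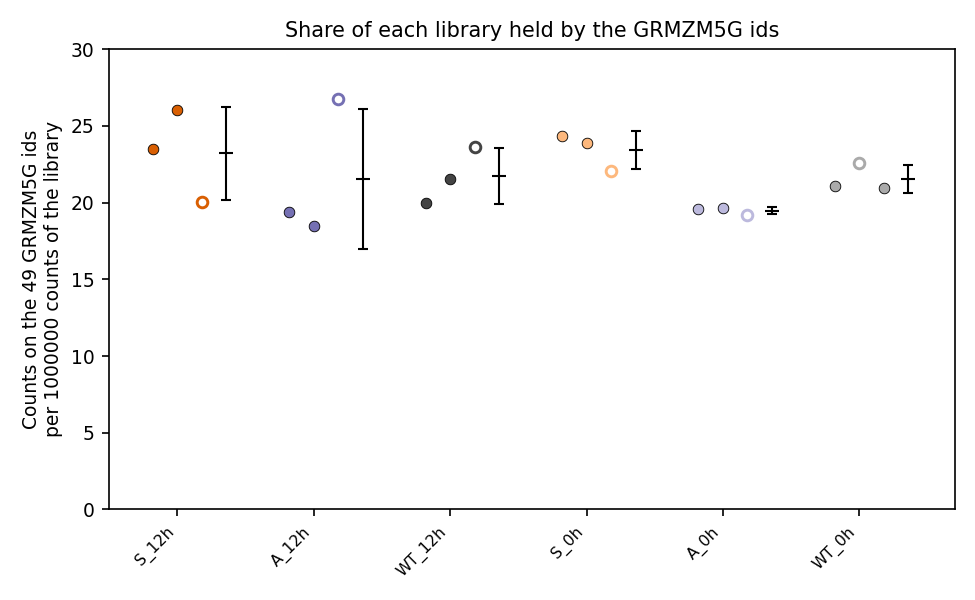
Counts on the 49 GRMZM5G genes per 1000000 counts of the library are plotted for each library (points) with the group mean ± SD (bars, n = 3). Open points are the 6 libraries nearest to another group, and the 3 A_0h libraries at 19.2 to 19.6 lie below all 3 WT_0h libraries at 21.0 to 22.6.

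With all 18 libraries, the combined share after 12 h of hypoxia overlapped with that at 0 h in every line. It was 23.2 ± 3.03 per 1000000 in S_12h and 23.4 ± 1.22 in S_0h, 21.5 ± 4.56 in A_12h and 19.5 ± 0.24 in A_0h, and 21.7 ± 1.81 in WT_12h and 21.6 ± 0.894 in WT_0h (SD, n = 3 each). The exact two-sided permutation p was 0.9 in each of these 3 comparisons. A group of 3 against a group of 3 cannot give a p below 0.1, so these values cannot show that the share was unchanged. The wide spread in A_12h came with replicate 3, at 26.8 against 19.4 and 18.4. Without the 6 libraries the differences between 12 h and 0 h turned sign, to 0.66 in line S, -0.685 in line A and -0.253 in WT. At 0 h, line A lay below WT in every library, at 19.5 ± 0.24 against 21.6 ± 0.894 per 1000000 (exact permutation p = 0.1, n = 3 each). That difference of -2.08 was -0.851 without GRMZM5G862955, the gene of highest mean count (exact permutation p = 0.5). Line S averaged 23.4 ± 1.22 against 21.6 ± 0.894 (exact permutation p = 0.2, n = 3 each), a difference of 1.88 that was 0.959 without this gene (exact permutation p = 0.5). At 12 h, the exact permutation p was 0.6 for S_12h, at 23.2 ± 3.03, and 1 for A_12h, at 21.5 ± 4.56, each against WT_12h at 21.7 ± 1.81 (n = 3). Adjusted over the 7 comparisons, no p was below 0.7.

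The 12 genes that passed the filter were tested in 9 contrasts by edgeR's quasi-likelihood test, fitted to all 20945 genes that passed and adjusted over them by the Benjamini-Hochberg method. A call is an adjusted p under 0.05. Of the 12, 0 were called in any contrast, with a lowest adjusted p of 0.134. DESeq2 also called 0. At an unadjusted p under 0.05, edgeR gave GRMZM5G867512 for A_12h over A_0h and GRMZM5G861791 for S_0h over WT_0h and for A_0h over WT_0h, 1 of the 12 in each, where the share of all genes at that level was 19.2%, 1.69% and 22.7%. It gave 0 of the 12 for S_12h over S_0h (28.7% of all genes), WT_12h over WT_0h (1.81%), S_12h over WT_12h (29.5%), A_12h over WT_12h (25.6%) and the difference between responses in line S (14.5%) and line A (5.2%), each against WT. The 12 genes averaged a median of 55.6 counts per library, against 1020 for all genes tested, so their values carried a larger counting error.

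The share of all genes called gives the background of these counts. After 12 h of hypoxia, 0 of the 12 were called in line S, where 8.7% of all genes were, and 0 in line A and 0 in WT, where the share of all genes was 0% in each. At 0 h, 0 of the 12 were called between line S and WT, with 0% of all genes, and 0 between line A and WT, with 3.32%. At 12 h, 0 were called between line S and WT, with 11.3%, and 0 between line A and WT, with 6.47%. The response to hypoxia differed between line S and WT in 0 of the 12 and 0.105% of all genes, and between line A and WT in 0 of the 12 and 0% of all genes. Shares of this size come to fewer than 2 of 12 genes. The absence of calls at this threshold therefore cannot show whether the GRMZM5G genes differ from the rest. At an unadjusted edgeR p under 0.05, 0 of the 12 stood against 28.7% of all genes for S_12h over S_0h. For S_12h over WT_12h it was 0 of the 12 against 29.5%, but for S_0h over WT_0h 1 of the 12 against 1.69%. Whether the fewer counts of the 12 genes play a part was not tested.

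With those 6 libraries left out, the same test called 6 values in 3 of the 12 genes, GRMZM5G862955, GRMZM5G861791 and GRMZM5G818111, which are given with their levels below. Calls over all genes were also more frequent, at 20.1% to 59.5%. It called 0 of the 12 for S_12h over S_0h, where 54.9% of all genes were called, 0 for WT_12h over WT_0h, where 29.2% were, and 0 for the difference between responses in line S (43.7%) and in line A (47.8%). The libraries left out were chosen for their lack of resemblance to their own group over all genes, a choice that favours a small spread within groups, so adjusted p-values from the 12 remaining libraries are a description only.

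**Figure D3:**
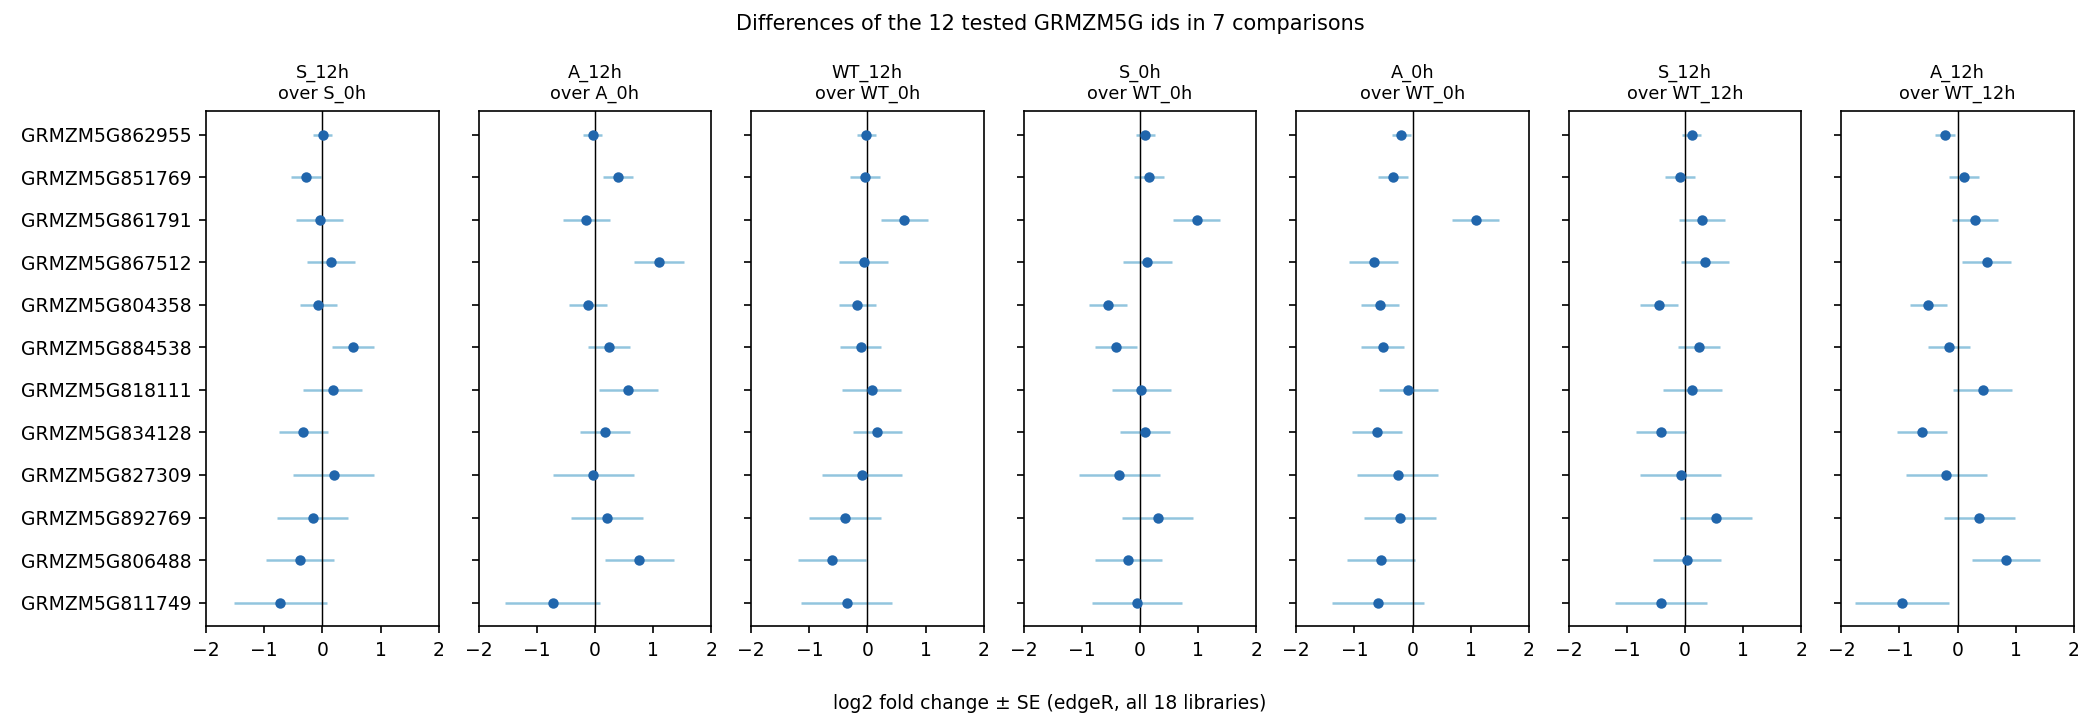
Log2 fold changes with their standard errors (edgeR, all 18 libraries) are plotted for the 12 tested GRMZM5G genes, ordered by mean CPM from top to bottom, in 7 comparisons. Standard errors were 0.16 for GRMZM5G862955, which had the most counts, and 0.78 to 0.82 for GRMZM5G811749, which had the fewest, and 11 of the 12 values of A_0h over WT_0h lie below 0.

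GRMZM5G862955, the gene with the most counts, had 465 to 1087 per library and varied least, with a coefficient of variation of 13.9% over the 18 libraries. It measured 12.4, 12.7 and 12.2 CPM in S_12h, 8.49, 8.28 and 12.8 CPM in A_12h, and 11.7, 10.7 and 11.9 CPM in WT_12h. At 0 h it measured 11.4, 12.9 and 12.8 CPM in S_0h, 11.2, 11.3 and 7.88 CPM in A_0h, and 12.4, 11.4 and 11.0 CPM in WT_0h. All libraries lay between 10.7 and 12.9 CPM except 3, namely A_12h replicates 1 and 2 and A_0h replicate 3, at 7.88 to 8.49 CPM. These 3 libraries were also each other's nearest over all genes. With all libraries, A_12h averaged 9.87 ± 2.56 CPM and A_0h 10.1 ± 1.95 CPM (SD, n = 3), a log2 fold change of -0.04 (SE 0.16, edgeR adjusted p = 0.881).

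Over the 12 libraries that remain without those 6, the same gene averaged 8.39 ± 0.151 CPM in A_12h and 11.3 ± 0.0846 CPM in A_0h (SD, n = 2). The log2 fold change was then -0.42 (SE 0.11, edgeR adjusted p = 0.00187), a call in a contrast in which 59.5% of all genes were called. A_12h was likewise called lower than WT_12h, at 8.39 ± 0.151 against 11.2 ± 0.728 CPM (n = 2), with a log2 fold change of -0.42 (SE 0.11, edgeR adjusted p = 0.00269, with 47% of all genes called). With all libraries that value was -0.22 (SE 0.16, edgeR adjusted p = 0.445). It was -0.12 without A_12h replicate 1, -0.11 without A_12h replicate 2 and -0.45 without A_12h replicate 3. In S_12h all 3 libraries, at 12.2 to 12.7 CPM, lay above all 3 WT_12h libraries, at 10.7 to 11.9 CPM. This difference did not pass the test (log2 fold change 0.12, SE 0.16, edgeR adjusted p = 0.668). The libraries of these 2 groups did not overlap in 26.9% of all genes tested.

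GRMZM5G851769 measured 3.32, 3.58 and 2.03 CPM in S_12h, 2.98, 3.14 and 4.11 CPM in A_12h, and 2.68, 3.40 and 3.42 CPM in WT_12h. It measured 4.48, 3.24 and 3.17 CPM in S_0h, 2.62, 1.88 and 3.27 CPM in A_0h, and 3.28, 3.41 and 3.10 CPM in WT_0h. The lowest values were in A_0h replicate 2 and S_12h replicate 3, and the groups overlapped in every comparison. A_12h averaged 3.41 ± 0.611 CPM and A_0h 2.59 ± 0.696 CPM (SD, n = 3; log2 fold change 0.39, SE 0.26, edgeR adjusted p = 0.332). It was 0.21 without A_0h replicate 2, 0.23 without A_12h replicate 3 and 0.59 without A_0h replicate 3.

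GRMZM5G861791 came nearest to a call. It measured 1.92, 2.73 and 1.51 CPM in S_12h, 2.18, 1.54 and 2.51 CPM in A_12h, and 0.893, 1.62 and 2.53 CPM in WT_12h. At 0 h it measured 2.56, 2.48 and 1.32 CPM in S_0h, 1.76, 2.09 and 3.03 CPM in A_0h, and 0.780, 1.33 and 1.13 CPM in WT_0h. WT_0h held the lowest group mean, and all 3 A_0h libraries lay above it. A_0h averaged 2.29 ± 0.659 CPM and WT_0h 1.08 ± 0.278 CPM (SD, n = 3), with a log2 fold change of 1.09 (SE 0.41, edgeR adjusted p = 0.134). S_0h averaged 2.12 ± 0.695 CPM against the same WT_0h libraries, with a log2 fold change of 0.97 (SE 0.40, edgeR adjusted p = 1), and here S_0h replicate 3 overlapped with WT_0h.

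Without the 6 libraries, GRMZM5G861791 was called higher in both lines at 0 h and in line S at 12 h. It averaged 2.52 ± 0.0577 CPM in S_0h against 0.955 ± 0.249 CPM in WT_0h (n = 2; log2 fold change 1.41, SE 0.32, edgeR adjusted p = 0.0031), where 20.1% of all genes were called. In A_0h it averaged 1.93 ± 0.235 CPM against the same WT_0h libraries (log2 fold change 1.02, SE 0.32, edgeR adjusted p = 0.013), where 49.2% of all genes were called. In S_12h it averaged 2.32 ± 0.573 CPM against 1.25 ± 0.512 CPM in WT_12h (n = 2; log2 fold change 0.90, SE 0.31, edgeR adjusted p = 0.0181), where 58.5% of all genes were called. With all libraries that last value was 0.29 (SE 0.40, edgeR adjusted p = 0.664). It was -0.016 without WT_12h replicate 1, 0.030 without S_12h replicate 2, 0.47 without S_12h replicate 3 and 0.71 without WT_12h replicate 3. The 2 comparisons at 0 h share their WT_0h libraries, so their directions are not independent of each other.

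GRMZM5G867512 measured 1.45, 1.15 and 0.585 CPM in S_12h, 0.637, 1.08 and 1.85 CPM in A_12h, and 0.814, 0.823 and 0.871 CPM in WT_12h. At 0 h it measured 1.06, 0.640 and 1.17 CPM in S_0h, 0.616, 0.419 and 0.615 CPM in A_0h, and 0.792, 1.03 and 0.806 CPM in WT_0h. The 6 WT libraries lay close together, and the 3 A_0h libraries lay below all of them and below all 3 A_12h libraries. A_12h averaged 1.19 ± 0.613 CPM and A_0h 0.550 ± 0.114 CPM (SD, n = 3), with a log2 fold change of 1.1 (SE 0.42, edgeR adjusted p = 0.257). It was 0.73 (SE 0.43, edgeR adjusted p = 0.15) without the 6 libraries, among them A_12h replicate 3, the highest library, and 0.64 without A_12h replicate 3 alone.

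GRMZM5G804358 was counted lower in both lines than in WT at 0 h, without passing the test. It measured 0.836, 0.702 and 0.874 CPM in S_0h, 1.09, 0.837 and 0.472 CPM in A_0h, and 1.07, 1.1 and 1.36 CPM in WT_0h. At 12 h it measured 0.800, 0.618 and 0.878 CPM in S_12h, 0.734, 0.704 and 0.772 CPM in A_12h, and 0.847, 1.05 and 1.23 CPM in WT_12h. S_0h lay below WT_0h and A_12h below WT_12h in every library, and A_0h replicate 1 overlapped with WT_0h. The log2 fold change was -0.55 (SE 0.32) for S_0h and -0.50 (SE 0.32, edgeR adjusted p = 0.359) for A_12h, and neither passed the test. A_0h averaged 0.800 ± 0.312 CPM and WT_0h 1.18 ± 0.161 CPM (SD, n = 3; log2 fold change -0.56, SE 0.32, edgeR adjusted p = 0.321). That value was -0.29 without A_0h replicate 3, -0.85 without A_0h replicate 1 and -0.33 without the 6 libraries.

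GRMZM5G884538 measured 0.619, 1.71 and 0.836 CPM in S_12h, 0.707, 0.669 and 1.05 CPM in A_12h, and 0.904, 1.03 and 0.747 CPM in WT_12h. It measured 0.779, 0.727 and 0.685 CPM in S_0h, 0.599, 0.750 and 0.686 CPM in A_0h, and 0.831, 1.01 and 1.07 CPM in WT_0h. Both lines lay below WT at 0 h in every library, and S_12h replicate 2, at 1.71 CPM, stood above all other libraries. Neither difference at 0 h passed the test. The log2 fold change was -0.41 (SE 0.36) for S_0h and -0.52 (SE 0.36, edgeR adjusted p = 0.428) for A_0h. Groups lay apart in this way, in either direction, in 9.33% and 25.8% of all genes tested.

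GRMZM5G818111 measured 0.861, 1.24 and 0.376 CPM in S_12h, 1.18, 0.809 and 1.08 CPM in A_12h, and 0.689, 0.868 and 0.709 CPM in WT_12h. It measured 0.779, 0.953 and 0.461 CPM in S_0h, 0.405, 0.384 and 1.26 CPM in A_0h, and 0.524, 0.891 and 0.744 CPM in WT_0h. The 3 lowest libraries were S_12h replicate 3 and A_0h replicates 1 and 2, each other's nearest over all genes. Without the 6 libraries it was called higher in line A under hypoxia, at 0.994 ± 0.261 CPM in A_12h and 0.394 ± 0.0151 CPM in A_0h (n = 2; log2 fold change 1.33, SE 0.44, edgeR adjusted p = 0.0131). With all libraries, at 1.02 ± 0.190 CPM in A_12h and 0.682 ± 0.499 CPM in A_0h (SD, n = 3), the log2 fold change was 0.58 (SE 0.51, edgeR adjusted p = 0.465). It was 0.31 without A_0h replicate 1, 0.29 without A_0h replicate 2 and 1.36 without A_0h replicate 3.

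GRMZM5G834128 measured 0.574, 0.600 and 0.481 CPM in S_12h, 0.471, 0.399 and 0.579 CPM in A_12h, and 0.520, 0.898 and 0.784 CPM in WT_12h. It measured 0.822, 0.464 and 0.791 CPM in S_0h, 0.176, 0.541 and 0.558 CPM in A_0h, and 0.767, 0.617 and 0.573 CPM in WT_0h. All 3 A_0h libraries lay below all 3 WT_0h libraries, and the lowest, A_0h replicate 1, rested on 10 counts. This difference did not pass the test (log2 fold change -0.61, SE 0.43, edgeR adjusted p = 0.424).

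**Figure D4:**
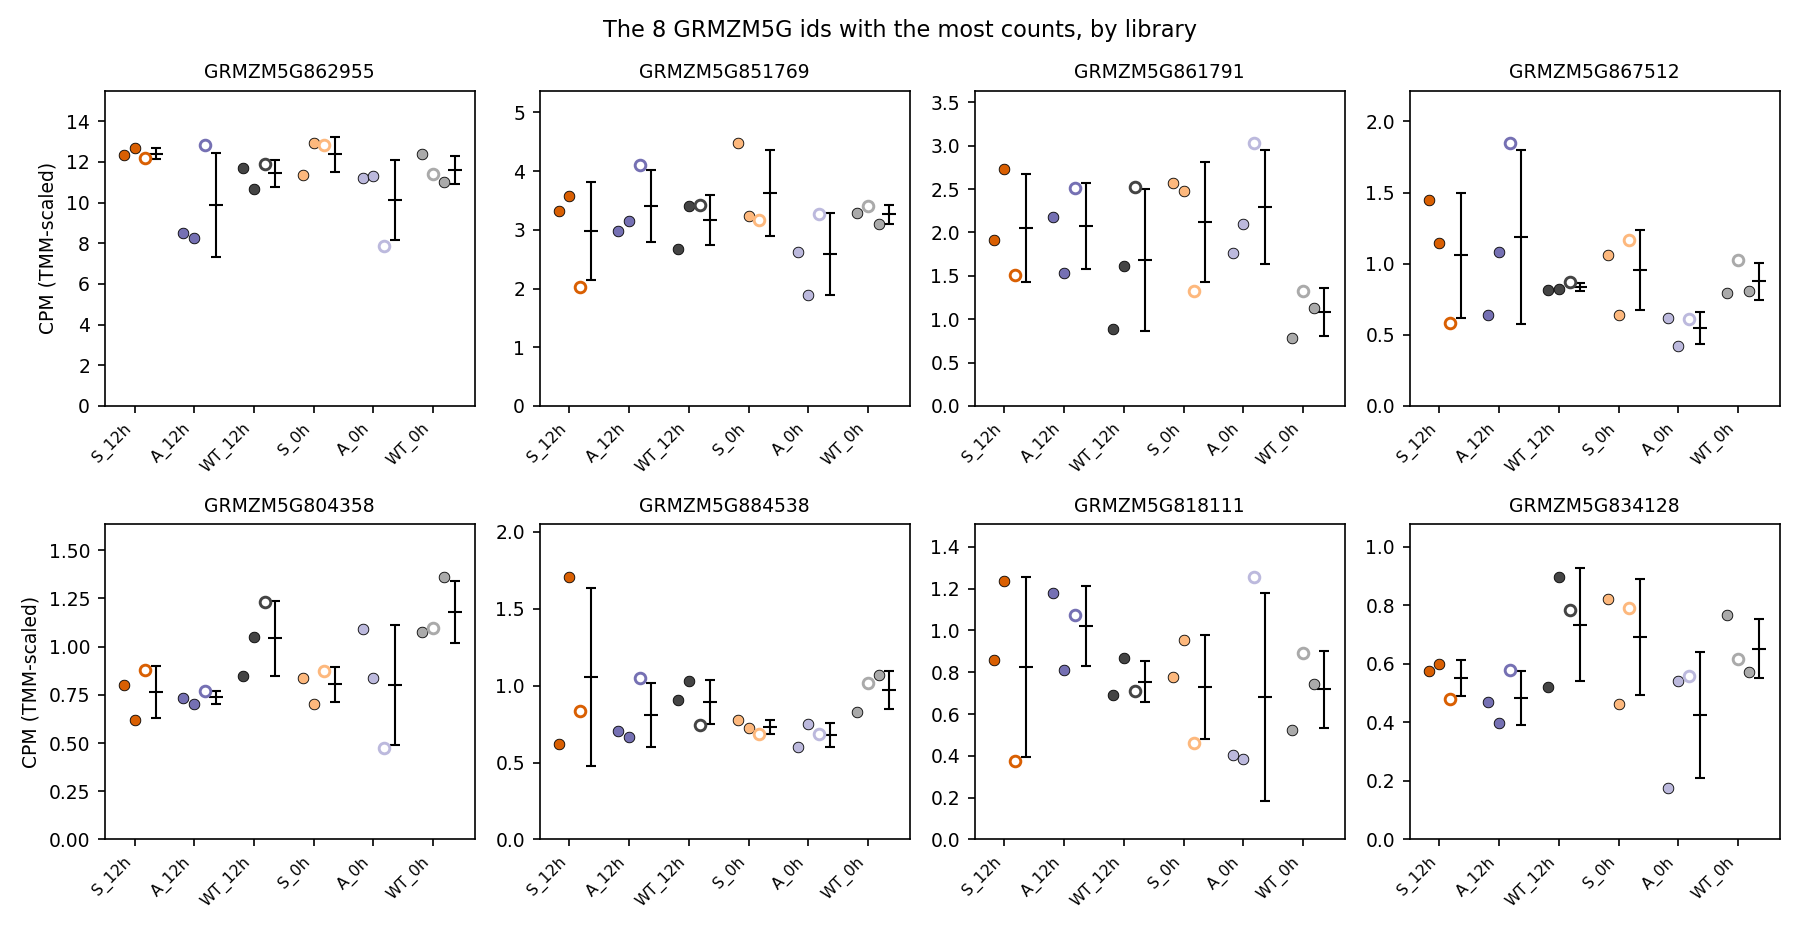
TMM-scaled CPM of the 8 GRMZM5G genes with the highest mean CPM are plotted for each library (points) with the group mean ± SD (bars, n = 3). Open points are the 6 libraries nearest to another group. For GRMZM5G862955, the open A_0h point at 7.88 CPM lies beside the filled A_12h points at 8.28 and 8.49 CPM.

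The other 4 tested genes had 2 to 46 counts per library. GRMZM5G806488 measured 0.333, 0.282 and 0.331 CPM in A_12h and 0.211, 0.244 and 0.10 CPM in A_0h, against 0.181, 0.210 and 0.137 CPM in WT_12h and 0.102, 0.521 and 0.186 CPM in WT_0h. A_12h lay above A_0h and above WT_12h in every library. The log2 fold changes were 0.76 (SE 0.59, edgeR adjusted p = 0.400) and 0.84 (SE 0.59, edgeR adjusted p = 0.403), and neither passed the test. In S_12h this gene measured 0.242, 0.127 and 0.167 CPM and in S_0h 0.255, 0.213 and 0.236 CPM. The difference between line A and WT in the response to hypoxia was 1.38 on the log2 scale (SE 0.83, edgeR adjusted p = 0.689), and WT_0h replicate 2, one of the 6 libraries, held its highest value. The difference was 0.48 without that library and -0.018 without all 6. GRMZM5G827309 ranged over 0.0945 to 0.630 CPM, GRMZM5G892769 over 0.110 to 0.544 CPM and GRMZM5G811749 over 0.0274 to 0.358 CPM. None of these 3 separated the libraries of the groups in any of the 7 comparisons.

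Counted by whether libraries of the groups compared overlapped, the 12 tested genes are given beside the share of all genes tested. With so few genes a single gene moves the share, and whether the shares differ was not tested. In S_12h against S_0h, 0 of the 12 genes did not overlap, against 28.7% of all genes tested, and in WT_12h against WT_0h 0 of 12, against 8.68%. In A_12h against A_0h it was 2 of 12, GRMZM5G867512 and GRMZM5G806488, both higher in A_12h, against 17.8% of all genes. At 0 h it was 2 of 12 for line S, GRMZM5G804358 and GRMZM5G884538, both lower than in WT, against 9.33%. For line A at 0 h it was 4 of 12, against 25.8%, with GRMZM5G861791 higher than in WT, and GRMZM5G867512, GRMZM5G884538 and GRMZM5G834128 lower. At 12 h it was 1 of 12 for line S, GRMZM5G862955, against 26.9%, and 2 of 12 for line A, GRMZM5G804358 lower and GRMZM5G806488 higher, against 36.7%.

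In line A at 0 h most of the tested genes lay on the same side of WT. For A_0h over WT_0h, 11 of the 12 log2 fold changes were below 0, GRMZM5G861791 being the exception, and their median was -0.42, while 46.2% of all genes tested were below 0 and the median of all was 0.03. The median of the 12 ran from -0.55 to -0.25 when any 1 library was left out. Without the 6 libraries it was -0.41, with 8 of the 12 below 0, while 48.7% of all genes were below 0 and their median was 0.01. With no low-count filter, which adds genes close to the limit of detection, 21 of 38 GRMZM5G genes lay below 0. Their median was then -0.21, and that of all genes 0.02. In the other 6 comparisons of 2 groups the median of the 12, with all libraries, lay between -0.08 and 0.19. Genes of a library share its depth and composition, so the 12 values are not replicates, and none of the 11 genes below 0 passed the test.

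For the 6 libraries nearest to another group over all genes, nearness to that group was also counted in the tested GRMZM5G genes. Taking each tested gene in each of these libraries, 47 of 72 values of log2 CPM (65.3%) lay nearer to the mean of 2 libraries of that group than to the mean of the 2 libraries that share its label, against 78.2% over all genes tested. The share was highest in A_12h replicate 3, with 10 of 12 genes nearer to S_12h. It was lowest in S_0h replicate 3, with 5 of 12 nearer to WT_0h. The libraries and their nearest groups were picked over all genes tested, these 12 included, and genes of a library are not replicates. The shares are therefore a description only.

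Across the 18 libraries the correlations between tested genes were of both signs. Over the 66 pairs of genes, Spearman's rho of CPM ran from -0.61 to 0.71 with a median of 0.05. The pairs most alike were GRMZM5G851769 with GRMZM5G834128 (rho 0.71) and with GRMZM5G867512 (rho 0.69), and the least alike was GRMZM5G804358 with GRMZM5G818111 (rho -0.61). These values describe 18 libraries that share depth, group and composition between genes. Counting error, larger in these genes of few counts, can hide a shared pattern, so its absence was not shown.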

How the data were processed

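The authors deposited 1 table of whole-number read counts per gene, not normalised, for 18 libraries. The submitters' processing notes name featureCounts, HISAT2 and the build B73 RefGen_v4. The sources used here do not give versions, strand setting, multi-mapping rule or filters. Groups and replicate numbers came from the sample titles. Whether replicates came from separate pools of seedlings is not in the labels. The spread behind every p-value is that between these libraries and may be technical.

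Genes were filtered with filterByExpr (20945 kept), scaled by TMM (factors 0.975 to 1.02) and fitted with edgeR 4.0.16 (R 4.3.3) with 1 mean per group and robust quasi-likelihood dispersion over all 18 libraries. Standard errors are the size of the log2 fold change divided by the square root of F. Summed shares used total counts and exact permutation tests (scipy 1.17.1). The alternatives were DESeq2 1.42.0, RLE scaling, no filter, a replicate block, library sizes without the GRMZM5G rows, no 6 libraries nearest to another group, and each library left out. Values by library are given for the 8 GRMZM5G genes with the highest mean CPM, the 3 detected with the lowest, and, as none was called, the 5 with the smallest p. Others named for a call without the 6 libraries or for their counts were chosen after their values were seen. The genes, lists and alternatives were chosen with earlier results of these data known. Marker and pathway lists were not used, since 0 Zm00001d identifiers are held by the RefSeq table.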

Additional observations from a re-analysis of the deposited data

How the results depend on the processing

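No GRMZM5G gene was called in any of the 9 contrasts under DESeq2 (lowest adjusted p = 0.066), RLE scaling (0.133), no low-count filter (0.122), library sizes without the GRMZM5G rows (0.134), the replicate block (0.184) or with any 1 library left out (0 in each, lowest adjusted p = 0.0598 without A_0h replicate 3). With the 6 libraries that were nearest to another label left out, edgeR called 2 of 12 for A_12h over A_0h, 1 for S_0h over WT_0h, 1 for A_0h over WT_0h, 1 for S_12h over WT_12h and 1 for A_12h over WT_12h, where 59.5%, 20.1%, 49.2%, 58.5% and 47% of all genes were called. The cause was not tested, and 6 residual degrees of freedom remain there in place of 12.

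The difference in summed share, in counts per 1000000, turned sign without those 6 libraries for S_12h minus S_0h (0.66), A_12h minus A_0h (-0.685) and WT_12h minus WT_0h (-0.253), and for A_12h minus WT_12h without the gene of highest mean count (1.16). With 1 library left out these 4 differences ran from -1.66 to 1.35, -0.547 to 3.62, -0.768 to 1.03 and -2.80 to 1.36. Those of S_12h minus WT_12h (0.045 to 3.06), S_0h minus WT_0h (1.43 to 2.58) and A_0h minus WT_0h (-2.36 to -1.56) kept their sign, but were 0.339, 0.959 and -0.851 without the gene of highest mean count and 4.01, 3.09 and -1.43 without the 6 libraries.

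Of the log2 fold changes given, that of GRMZM5G806488 was -0.018 without the 6 libraries, that of GRMZM5G862955 for A_12h over A_0h ran from -0.28 to 0.066 with 1 library left out, and that of GRMZM5G861791 for S_12h over WT_12h from -0.016 to 0.71. Others that moved by over 1.5 times are given beside their values above.

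The background moved more. All-gene calls for S_12h over S_0h were 1822 by edgeR, 3767 by DESeq2 and 790 with the replicate block, for A_0h over WT_0h 696, 2305 and 285, for S_12h over WT_12h 2370, 4058 and 1284, and for A_12h over WT_12h 1356, 3114 and 577. With 1 library left out they ran from 228 (without S_0h replicate 2) to 6074 (without S_12h replicate 3) for S_12h over S_0h, and from 0 to 5112 (without A_0h replicate 3) for A_12h over A_0h. For A_0h over WT_0h they ran from 159 (without WT_0h replicate 3) to 3083 (without A_0h replicate 3), for S_12h over WT_12h from 353 (without WT_12h replicate 2) to 5990 (without S_12h replicate 3), and for A_12h over WT_12h from 86 (without WT_12h replicate 2) to 2994 (without S_12h replicate 3). DESeq2 called 188 for A_12h over A_0h, 7 for WT_12h over WT_0h, 13 for S_0h over WT_0h and 14 for the response of line A minus that of WT, where edgeR called 0. For the response of line S minus that of WT they were 22 by edgeR, 805 by DESeq2, 41 with RLE scaling and 2 with the block, and 2 to 1211 (without S_12h replicate 3) with 1 library left out. Deviations of same-numbered libraries correlated at -0.771 to 0.525, over 0.1 in 5 of 45 pairs, and the numbers were not taken as pairs. Of the 6 libraries nearest to another group, however, all but WT_0h replicate 2 are replicate 3. Each lay nearest to a different group, so these correlations cannot show whether a replicate number marks a shared effect.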

Other observations

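GRMZM5G800980, a gene below the filter that was chosen after its counts were seen, had 0 counts in every library of 1 group. So did GRMZM5G821687 in A_12h, and GRMZM5G887911 and GRMZM5G844628 in WT_12h. Other genes below the filter had 0 counts in more than 1 group, so this trait is not particular to GRMZM5G800980. GRMZM5G800980 had 0 counts in all 3 S_12h libraries, 5, 2 and 4 in S_0h, 5, 5 and 2 in WT_12h, and 6, 1 and 8 in WT_0h. In line A it had 6, 0 and 2 counts in A_12h and 0, 2 and 0 in A_0h. With no low-count filter, its edgeR adjusted p was 0.135 for S_12h over S_0h and 0.122 for S_12h over WT_12h, so neither difference passed the test.

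Small counts in the table were more often even than odd. Over all 28724 rows and 18 libraries, 11856 values were 2 and 6006 were 1, a ratio of 1.97, and 7028 values were 4 while 2930 were 3. Of all values from 1 to 10, 67.8% were even. In the 49 GRMZM5G genes, 50 values were 2 and 31 were 1, and 56.2% of the values from 1 to 10 were even. Whether the 2 reads of a pair were counted separately is not given in the sources used here and was not tested. The limits set by 3 counts are in counts and would be higher if both were.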
